A study of Mus musculus with 40 samples.

Results

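The libraries described here are the 4 BXD lines of a mouse hypothalamus panel chosen by their transthyretin (Ttr) mRNA, which was above 10 CPM (reads of a gene per 1000000 reads counted in that library). They were BXD32, BXD65, BXD101 and BXD63, and they are set against the 32 other BXD lines, out of 36 BXD lines and 40 libraries in all. BXD lines are recombinant inbred mouse lines bred from C57BL/6J and DBA/2J, and these 2 parental strains and their reciprocal hybrids B6D2F1 and D2B6F1 gave 1 library each. All mice were in a basal state without treatment, and their age and sex are not given in the sources used here. Each library of a BXD line held RNA pooled from 3 to 6 hypothalami, so every value below is 1 pooled library per line. Differences between animals, dissections and libraries of the same line were not measured. In such bulk tissue, fewer cells of a type and less RNA per cell cannot be told apart.

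The choroid plexus is a frond of vessels covered by a secretory epithelium that hangs in the ventricles of the brain and makes cerebrospinal fluid. Its epithelial cells synthesise transthyretin, a carrier of thyroid hormone and of retinol-binding protein, in very large amounts, and Ttr is the classic marker of this tissue. The cells move ions and water with the potassium channel subunit Kcne2, the potassium channel Kcnj13, the sodium bicarbonate cotransporter Slc4a5 and the water channel Aqp1. They are sealed by tight junctions that contain claudins. The plexus of the third ventricle lies beside the dorsal edge of the diencephalon.

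Promoters of choroid plexus genes were read from RefSeq (GRCm38.p6), from 250 bases before to 50 bases after a gene's start. Of the 18 genes of the choroid plexus list other than Ttr that were above all 32 other lines in BXD32, 15 matched, with 18 windows of 300 bases. Windows of 2 of them are shown. Slc4a5 set BXD32, BXD65 and BXD101 apart from the 32 other lines, and Kcnj13 set apart only BXD32. Capitals mark TATAAA and CCAAT on either strand, so that TTTATA and ATTGG are matches on the reverse strand, and no 2 of the marked stretches overlap. Kcnj13 lies at chr1:87394680-87394979 on the minus strand and Slc4a5 at chr6:83237125-83237424 on the plus strand.
Kcnj13: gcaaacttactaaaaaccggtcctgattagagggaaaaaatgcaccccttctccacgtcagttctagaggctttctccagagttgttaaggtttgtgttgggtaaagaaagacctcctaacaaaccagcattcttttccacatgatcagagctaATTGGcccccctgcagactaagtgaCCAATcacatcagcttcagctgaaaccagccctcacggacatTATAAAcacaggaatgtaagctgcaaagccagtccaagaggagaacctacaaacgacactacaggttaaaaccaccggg
Slc4a5: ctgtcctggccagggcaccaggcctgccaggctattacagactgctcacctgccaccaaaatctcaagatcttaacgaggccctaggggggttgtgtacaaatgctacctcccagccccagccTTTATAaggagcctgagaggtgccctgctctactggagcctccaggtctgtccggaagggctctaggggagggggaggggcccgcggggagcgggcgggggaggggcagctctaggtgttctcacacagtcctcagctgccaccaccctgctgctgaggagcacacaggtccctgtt
TATAAA was present in 4 of the 18 windows, against 13.6% of 32851 promoter windows of the same length. CCAAT was present in 2 of the 18 windows, against 37.4% of all windows. TAATCC, the letters read by Otx2 and related homeodomain factors, was present in 1 of the 18 windows, that of Abca4, against 7.06% of all windows. Such matches describe the letters only.

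Ttr chose the lines, so its level is given as a description. It stood at 808 CPM (18721 reads) in BXD32, 78.6 CPM (1487 reads) in BXD65, 51.0 CPM (1535 reads) in BXD101 and 22.03 CPM (493 reads) in BXD63. In the 32 other lines it ran from 0.245 to 6.39 CPM with a median of 1.02 CPM. The lines just below the threshold were BXD96 with 6.39 CPM (164 reads) and BXD90 with 5.76 CPM (104 reads). The hybrid D2B6F1 had 4.68 CPM, DBA/2J 1.21 CPM, B6D2F1 1.16 CPM and C57BL/6J 0.588 CPM. BXD32 therefore carried far more Ttr than any other library. Exact Poisson 95% intervals, which cover counting error only, ran from 797 to 820 CPM in BXD32.

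Total counts per library ran from 12.2 to 40.4 M, and a gene with no read could have had up to 3 reads, worth 0.0743 to 0.245 CPM. The totals averaged 23.6 ± 4.67 M in the 4 Ttr-high lines and 23.3 ± 4.57 M in the 32 other lines (SD, n = 4 and n = 32). An exact two-sided permutation test over 58905 choices of 4 lines gave p = 0.883 for that difference. Over 14484 genes, the median correlation of a library's log2 levels with those of the 32 other lines was 0.976 in BXD32, 0.985 in BXD63, 0.987 in BXD65 and 0.983 in BXD101. Within the 32 other lines the same median ran from 0.980 to 0.989. BXD32 lay below all of them, and each result below that rests on BXD32 is therefore given with and without it. The hypothalamic peptides that checked the tissue, Pmch, Hcrt, Agrp, Avp and Oxt, had reads in all 4 libraries, but not all at ordinary levels. In BXD63, Oxt had 17.03 CPM, Hcrt 23.4 CPM and Avp 34.1 CPM. The 32 other lines had 29.2 to 133, 29.7 to 114 and 42.5 to 161 CPM, so BXD63 was below all of them. Hcrt was above all 32 other lines in BXD101. Pmch, melanin-concentrating hormone, had 106 CPM in BXD32, 101 CPM in BXD63, 100.3 CPM in BXD65 and 161 CPM in BXD101, against 67.5 to 152 CPM in the 32 other lines. Agrp, the appetite peptide of arcuate neurons, had 2.16, 2.28, 2.80 and 4.69 CPM in the same order, against 1.54 to 6.65 CPM in the 32 other lines.

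The 4 lines shared Ttr and no other gene in this sense. Of 21236 genes with a read in a BXD line, Ttr alone was higher in each of the 4 lines than in all 32 others, which is 1 gene or 0.00471%. Leaving out BXD32, Ttr was again the 1 gene (0.00471%). The label of the group was checked on the defining markers Kcne2 and Kcnj13 and on a list of 31 genes of the choroid plexus epithelium, counted here as 30 without Ttr. Of these 30 genes, 18 lay above all 32 other lines in BXD32, 9 in BXD101, 4 in BXD65 and 2 in BXD63. The shares of all genes above the 32 lines were 11.6%, 5.52%, 2.2% and 3.95% in the same order. In BXD63 the defining markers Kcne2 and Kcnj13 lay within the range of the 32 other lines, and that library is described by its Ttr level only.

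Kcne2 had 7.04 CPM (163 reads) in BXD32, 0.626 CPM (14 reads) in BXD63, 1.22 CPM (23 reads) in BXD65 and 1.36 CPM (41 reads) in BXD101, against 0.227 to 0.810 CPM with a median of 0.446 CPM in the 32 other lines. BXD32, BXD65 and BXD101 lay above all 32 lines, and BXD63 lay within their range. Slc4a5 had 8.81 CPM in BXD32, 0.0894 CPM (2 reads) in BXD63, 1.00 CPM (19 reads) in BXD65 and 0.998 CPM (30 reads) in BXD101, against 0 to 0.334 CPM in the 32 other lines. The same 3 lines were again above the range, and BXD63 was inside it. Kcnj13 had 5.09 CPM in BXD32, 0.715 CPM in BXD63, 2.06 CPM in BXD65 and 2.63 CPM in BXD101, against 0.115 to 2.68 CPM in the 32 other lines. Only BXD32 was above the range for Kcnj13, because this channel varied widely among the 32 lines as well. Folr1, the folate receptor that carries folate into cerebrospinal fluid, had 2.20 CPM in BXD32, 0.268 CPM in BXD63, 1.00 CPM in BXD65 and 0.831 CPM in BXD101, against at most 0.802 CPM in the 32 other lines.

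**Figure D1:**
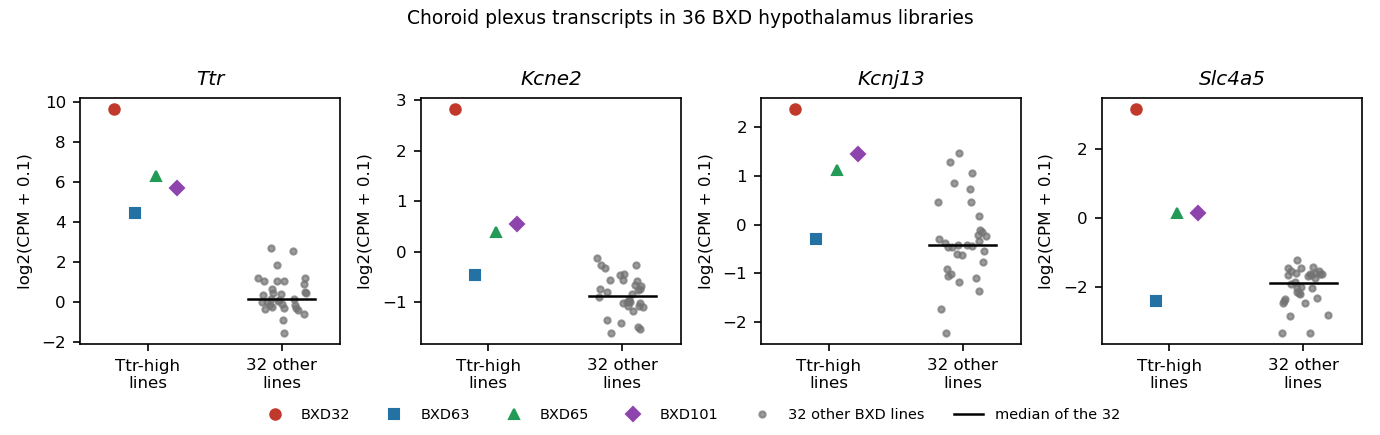
Levels of Ttr, Kcne2, Kcnj13 and Slc4a5 as log2(CPM + 0.1) on the vertical axis, in the 4 Ttr-high lines (coloured symbols, left) and in the 32 other BXD lines (grey points with their median, right), 1 library per line. For Kcne2 and Slc4a5 the symbols of BXD32, BXD65 and BXD101 lie above all grey points and that of BXD63 lies among them.

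The remaining choroid plexus genes separated BXD32 much more clearly than the other 3 lines. F5, coagulation factor V, had 8.76 CPM in BXD32, 1.12 CPM in BXD63, 2.01 CPM in BXD65 and 1.86 CPM in BXD101, against 0.432 to 2.09 CPM in the 32 other lines. 1500015O10Rik, which RefSeq names Ecrg4 and which encodes the secreted peptide augurin, had 8.68 CPM in BXD32, 1.34 CPM in BXD63, 2.17 CPM in BXD65 and 2.96 CPM in BXD101, against 0.409 to 2.22 CPM in the 32 other lines. Tmem72, a membrane protein of the choroid plexus and kidney, had 4.45 CPM in BXD32, 0.492 CPM in BXD63, 0.529 CPM in BXD65 and 0.233 CPM in BXD101, against 0.111 to 0.615 CPM in the 32 other lines. BXD101 joined BXD32 above the range for 1500015O10Rik, and BXD32 stood alone for F5 and Tmem72. Kl, the co-receptor of fibroblast growth factor 23, had 34.6 CPM in BXD32, 11.1 CPM in BXD63, 13.8 CPM in BXD65 and 18.1 CPM in BXD101, against 8.09 to 17.7 CPM in the 32 other lines. Sostdc1, a secreted antagonist of bone morphogenetic proteins, had 8.63 CPM in BXD32 and 2.23 to 2.64 CPM in the other 3 Ttr-high lines, against 1.90 to 3.59 CPM in the 32 other lines. Aqp1 had 3.71 CPM in BXD32 and 0.698 to 1.27 CPM in the other 3 Ttr-high lines, against 0.164 to 1.99 CPM in the 32 other lines. The claudin Cldn2 had 4.49 CPM in BXD32 and 0.899 to 1.47 CPM in the other 3 Ttr-high lines, against 0.245 to 1.41 CPM in the 32 other lines. Of these 4 genes, Sostdc1 and Aqp1 set only BXD32 apart, Kl also put BXD101 just above the range, and Cldn2 put BXD63 there by a small margin.

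Enpp2, which encodes the lysophospholipase autotaxin and is also made by oligodendrocytes, had 937 CPM in BXD32, 257 CPM in BXD63, 308 CPM in BXD65 and 253 CPM in BXD101, against 195 to 305 CPM in the 32 other lines. Of a list of 12 choroid plexus genes shared with other cells, 6 were above all 32 other lines in BXD32, 0 in BXD63, 2 in BXD65 and 0 in BXD101. Some genes of the epithelium list did not stand out. Clic6, a chloride channel protein, had 49.9 CPM in BXD32 and 29.4 to 34.1 CPM in the other 3 Ttr-high lines, against 24.7 to 53.1 CPM in the 32 other lines. Otx2, the homeodomain factor of the choroid plexus, had 4.53 CPM in BXD32 and 3.23 to 5.18 CPM in the other 3 Ttr-high lines, against 2.14 to 6.03 CPM in the 32 other lines. Mfrp had no read in any BXD line. Counted over the 30 genes without Ttr, 18 were above all 32 other lines in BXD32, 2 in BXD63, 4 in BXD65 and 9 in BXD101. Over all 21236 genes, 11.6% lay above all 32 other lines in BXD32, 3.95% in BXD63, 2.2% in BXD65 and 5.52% in BXD101. Nothing is read from these list counts, because the genes mark the same cells as Ttr. The summed level of the 30 genes was 351 CPM in BXD32, 225 CPM in BXD63, 233 CPM in BXD65 and 249 CPM in BXD101, against 211 to 272 CPM in the 32 other lines. Only BXD32 was above that range.

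**Figure D2:**
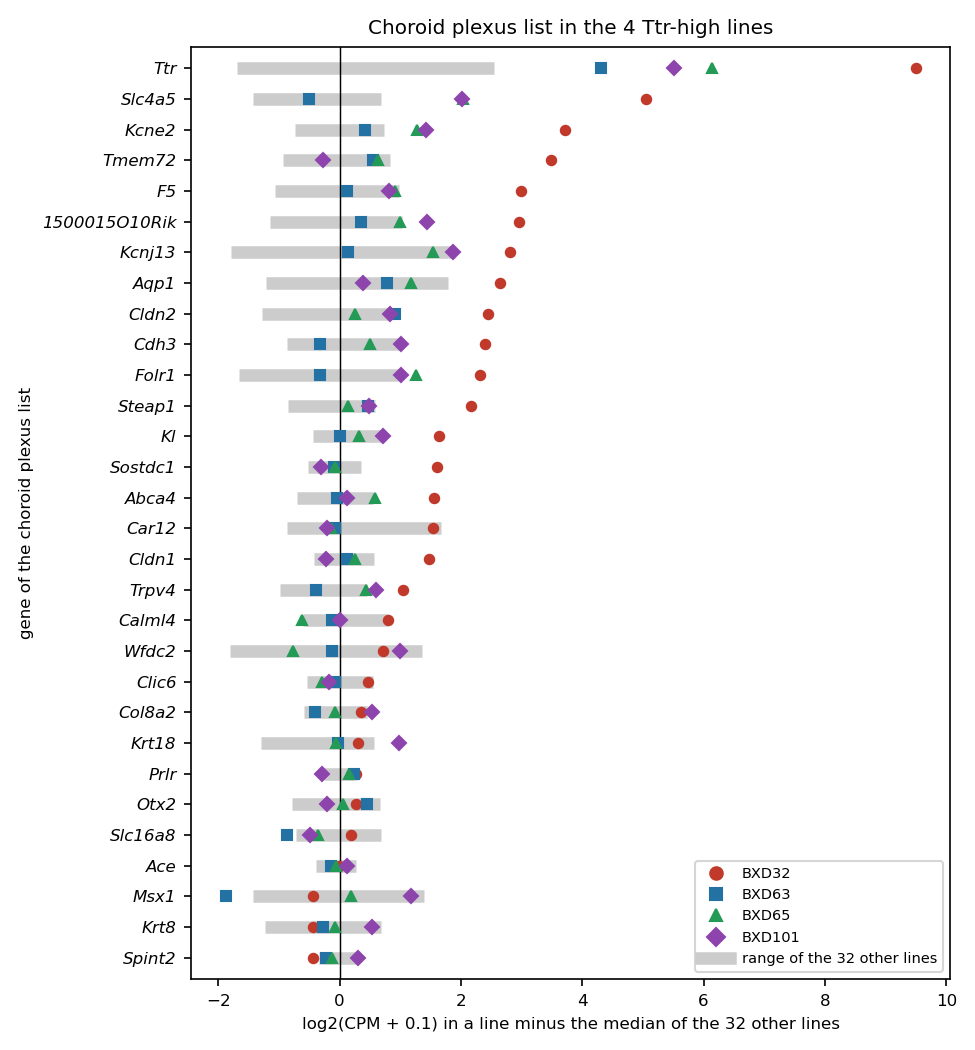
Difference of each choroid plexus list gene from the median of the 32 other lines on the log2(CPM + 0.1) scale, with 1 symbol per Ttr-high line and a grey bar for the range of the 32 other lines. Mfrp, at 0 throughout, is left out. BXD32 lies right of the grey bar for 19 of the genes with Ttr, while BXD63 lies right of it for 3.

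Each gene was also set against Ttr. This is a description only, chosen after the values were seen, since Ttr chose the lines and the genes were taken for being high in BXD32. Above the median of the 32 other lines, Kcne2 had 8.17 CPM for each 1000 CPM of Ttr in BXD32, 8.57 in BXD63, 9.93 in BXD65 and 18.3 in BXD101. For Slc4a5 the ratio was 10.7 in BXD32, -3.85 in BXD63, 10.8 in BXD65 and 16.5 in BXD101. For Kcnj13 it was 5.51 in BXD32, 3.38 in BXD63, 18.3 in BXD65 and 39.6 in BXD101. BXD65 matched BXD32 closely for Kcne2 and Slc4a5, and BXD101 had higher ratios for all 3 genes. At the ratios of BXD32, the 18 list genes above the range there would add 0.455 to 13.7 reads each in BXD63, 1.42 to 42.8 in BXD65 and 1.46 to 43.9 in BXD101. In BXD63 Kcne2 would reach 13.8 reads, and 14 were counted, with an exact Poisson 95% interval of 7.65 to 23.5 reads. That interval also held 9.97 reads, the level of Kcne2 at the median of the 32 other lines. Slc4a5 was below its value in BXD63, with 2 reads (0.242 to 7.22) where 8.84 would be reached. Cldn2, with 33 reads (22.7 to 46.3) where 18.7 would be reached, and Prlr, the prolactin receptor, with 1417 reads (1344 to 1493) where 1203 would be reached, were above theirs. The reads counted held the value at BXD32's ratio within their interval for 15 of the 18 genes in BXD63, 13 in BXD65 and 8 in BXD101. Above that value were 2 genes in BXD63, 4 in BXD65 and 7 in BXD101, and below it were 1, 1 and 3. Kcnj13 was among those above in BXD101, with 79 reads (62.5 to 98.5) where 27.7 would be reached. In BXD63 the reads added at BXD32's ratio were few beside the width of the intervals. For most genes there, these counts cannot tell BXD32's ratio from no added reads. In all 3 lines the intervals cover counting error only. They take the median of the 32 other lines as fixed, so the spread between lines is left out. Prlr in BXD63 counted as above although the ratio added only 6.46 reads to the 1197 at that median. Nothing about the ratios is read from the numbers of genes inside, above or below.

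All other genes were compared between the 4 Ttr-high lines and the 32 other lines with edgeR's quasi-likelihood test on the counts, with Benjamini-Hochberg adjustment over 16145 genes. At an adjusted p under 0.05, 17 genes were higher (0.105%) and 0 were lower (0%), with 1358 higher and 1255 lower at an unadjusted p under 0.05. On the choroid plexus lists were 8 of the 17, namely Kcne2, 1500015O10Rik, Tmem72, Cldn2, Kl, F5, Aqp1 and Enpp2, from which nothing is read for the reason above. The other 9 were Pax2, Tph2, Irx2, Tfap2b, Vwa7, Nefm, Cgnl1, Kat2b and Nefh. In all 17 genes BXD32 was above every one of the 32 other lines, and in 11 of them it was the only one of the 4 lines there. Without BXD32, edgeR called 0 of 16237 genes in either direction (222 higher and 398 lower at an unadjusted p under 0.05), and the smallest adjusted p was 0.183, for Kcne2. DESeq2 called 0 genes in that comparison too (235 higher and 446 lower unadjusted). The comparison of 4 lines thus rests on BXD32. In the comparison of 4 lines DESeq2 called 0 genes but gave an adjusted p to only 2831, none of them among the 17. Without its check on Cook distances it called 32 genes higher (0.151%) and 3 lower (0.0141%). With BXD65 and BXD101 alone against the 32 other lines, edgeR called 2 genes, Slc4a5 (log2 fold change 2.57 ± 0.384 SE, adjusted p = 0.000599) and Kcne2 (1.45 ± 0.270, adjusted p = 0.0255), both on the choroid plexus list. Slc4a5 had at most 0.334 CPM in the 32 other lines and passed the filter on low counts only through BXD65 and BXD101. Both genes mark the same cells as Ttr, which chose the lines, so nothing is read from these 2 calls.

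The 9 genes outside the choroid plexus lists that passed in the comparison of 4 lines included Pax2, Tph2 and both larger neurofilament chains, and BXD32 set the level of each. Pax2, a paired-box factor of inhibitory interneurons in hindbrain and spinal cord, had 5.18 CPM in BXD32 and 0.200 to 0.476 CPM in the other 3 Ttr-high lines, against 0.0805 to 0.499 CPM in the 32 other lines. Its log2 fold change was 2.60 ± 0.377 (SE; edgeR adjusted p = 0.000124), and 0.27 without BXD32 (edgeR adjusted p = 0.995). Tph2, the enzyme that makes serotonin in raphe neurons, had 12.8 CPM (297 reads) in BXD32 and 0.233 to 0.687 CPM in the other 3 Ttr-high lines, against 0.191 to 0.976 CPM in the 32 other lines. Its log2 fold change was 2.70 ± 0.404 (SE; edgeR adjusted p = 0.000195), and it turned to -0.26 without BXD32. For these 2 genes the other 3 Ttr-high lines lay within the range of the 32. Nefm, the medium neurofilament chain of large axons, had 513 CPM in BXD32, 153 CPM in BXD63, 159 CPM in BXD65 and 139 CPM in BXD101, against 109 to 215 CPM in the 32 other lines. Nefh, the heavy chain, had 360.4 CPM in BXD32 and 119 to 124 CPM in the other 3 Ttr-high lines, against 97.5 to 135 CPM in the 32 other lines. Nefm and Nefh passed with log2 fold changes of 0.83 ± 0.170 and 0.62 ± 0.136 (SE; edgeR adjusted p = 0.0243 and 0.0458). Irx2, an Iroquois homeodomain factor, had 10.4 CPM in BXD32 and 2.10 to 3.23 CPM in the other 3 Ttr-high lines, against 1.15 to 2.97 CPM in the 32 other lines, and BXD101 was also above the range. Tfap2b, an AP-2 factor, had 4.58 CPM in BXD32, against at most 1.45 CPM in the 32 other lines, and Vwa7 had 6.91 CPM, against at most 1.39 CPM. Cgnl1, a tight junction protein, and Kat2b, a histone acetyltransferase, had smaller log2 fold changes of 0.54 ± 0.114 and 0.29 ± 0.0642 (SE; edgeR adjusted p = 0.0373 and 0.0454). Without BXD32 none of the 9 genes passed, and Vwa7 turned to -0.014.

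BXD32 is therefore described apart, by a rule of size and with no test, since it is 1 library. On the log2(CPM + 0.1) scale, 107 of 12219 genes (0.876%) were at least 1 unit above the median of the 32 other lines, and 116 (0.949%) were at least 1 unit below it, among genes with at least 5 CPM in BXD32 or in that median. The same counts over the 32 other lines ran from 14 to 127 higher (median 36) and from 17 to 78 lower (median 30.5), so BXD32 was high but not extreme in the number of genes higher and above all others in the number lower. Of the 107 and 116 genes, 80 lay above and 64 below all 32 other lines. Each of the 32 other lines, set against the rest of the 32, had 1 to 83 and 0 to 47 such genes.

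Outside the choroid plexus lists, the gene with the largest difference in BXD32 was Slc6a5, the glycine transporter 2 that defines glycinergic neurons of the hindbrain and spinal cord. It had 56.5 CPM (1310 reads) in BXD32, 0.0447 CPM in BXD63, 0.0529 CPM in BXD65 and 0.0665 CPM in BXD101, against 0 to 0.202 CPM in the 32 other lines, 14 of which had no read. Glra1, a glycine receptor subunit, had 37.6 CPM in BXD32 and 3.29 to 8.72 CPM in the other 3 Ttr-high lines, against 3.53 to 11.6 CPM in the 32 other lines. Slc6a4, the serotonin transporter, had 6.78 CPM in BXD32 and 0.0529 to 0.299 CPM in the other 3 Ttr-high lines, against at most 0.507 CPM in the 32 other lines. These genes, like Tph2 above, were high in BXD32 alone. Of the noradrenergic genes, Slc6a2 showed the same split, and Dbh did so apart from a slightly higher level in BXD63. Dbh, the enzyme that makes noradrenaline, had 5.31 CPM (123 reads) in BXD32 and 0.0998 to 0.179 CPM in the other 3 Ttr-high lines, against at most 0.153 CPM in the 32 other lines. Slc6a2, the noradrenaline transporter, had 5.40 CPM (125 reads) in BXD32 and 0 to 0.106 CPM in the other 3 Ttr-high lines, against at most 0.146 CPM in the 32 other lines. Lists of serotonin, noradrenaline and glycine genes were added after the values were seen. In BXD32, 4 of 9, 3 of 6 and 3 of 7 of their genes lay above all 32 other lines, and 0, 1 and 1 below. Over all genes the shares were 11.6% and 8.88%. Median differences were -0.16, -0.20 and -0.16 over the 4, 2 and 6 genes above 1 CPM in the mean of the 32 other lines. That rule leaves out Slc6a5, Tph2, Slc6a4, Dbh and Slc6a2, which were low in those lines. Pou4f1, a POU factor of habenular and some hindbrain neurons, had 4.10 CPM in BXD32, against at most 0.194 CPM in the 32 other lines.

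**Figure D3:**
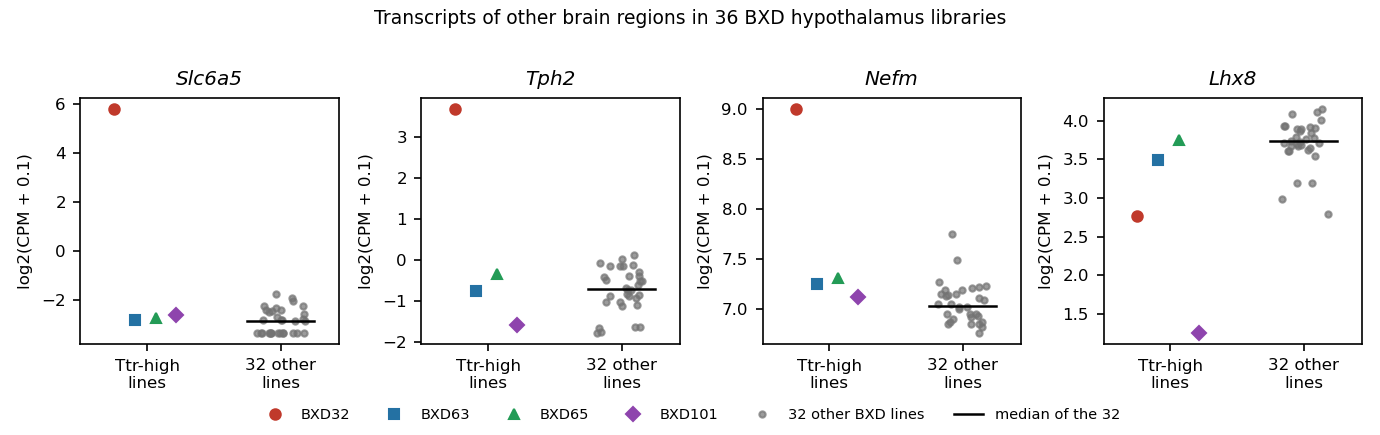
Levels of Slc6a5, Tph2, Nefm and Lhx8 as log2(CPM + 0.1), in the 4 Ttr-high lines (coloured symbols, left) and in the 32 other BXD lines (grey points with their median, right), 1 library per line. Slc6a5, Tph2 and Nefm are high only in BXD32, and Lhx8 is below all grey points in BXD32 and BXD101.

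Hox genes give the position along the body axis, because low-numbered paralogue groups are transcribed from the hindbrain backwards and high-numbered groups only in more posterior spinal cord, while the hypothalamus and the rest of the forebrain hold little Hox mRNA. The description of Hox genes by paralogue group was chosen after the values were seen. The 20 genes of paralogue groups 2 to 8 had 1199 reads in BXD32, at most 5 in any of the other 3 Ttr-high lines and at most 7 in any of the 32 other lines. Of these 20 genes, 16 had more than 3 reads in BXD32 and more than in any of the 32 other lines. Hoxb5 had 191 reads, Hoxb3 175, Hoxd3 138, Hoxa5 137 and Hoxc4 121 in BXD32, and none of these genes had more than 2 reads in any other BXD line. Hoxb8, with 24 reads, was the highest-numbered gene clearly present. The 16 genes of groups 9 to 13 had 1 read in BXD32 and at most 2 in any of the 32 other lines. BXD32 thus held transcripts of groups 2 to 8 and no detectable excess of groups 9 to 13. Counting by strand is not described in the sources used here, so reads of a Hox gene and of an antisense transcript over it cannot be told apart.

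**Figure D4:**
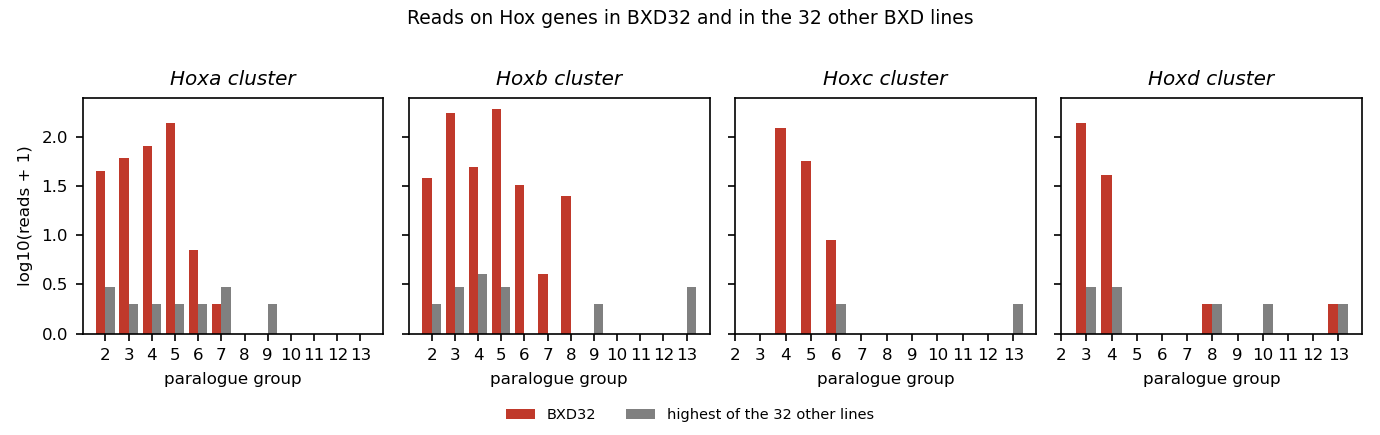
Reads of each Hox gene of paralogue groups 2 to 13 as log10(reads + 1), by cluster and group, in BXD32 (red bars, left of each pair) and as the highest count among the 32 other BXD lines (grey bars, right). Bars of BXD32 are tall for groups 2 to 6 and for Hoxb8, and both colours stay near 0 from group 9 on.

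Over the list of 17 brainstem and Hox genes, 15 were above all 32 other lines in BXD32, 1 in BXD63, 0 in BXD65 and 1 in BXD101, beside the 11.6%, 3.95%, 2.2% and 5.52% of all genes given above. Their summed level was 148 CPM in BXD32, 28.8 CPM in BXD63, 45.0 CPM in BXD65 and 50.5 CPM in BXD101, against 26.1 to 79.2 CPM in the 32 other lines. Genes of the cerebellum, a list added after the values were seen, were in part above the range in BXD32. Gabra6, a receptor subunit of cerebellar granule cells, had 1.81 CPM in BXD32 and 0.0447 to 0.233 CPM in the other 3 Ttr-high lines, against at most 0.146 CPM in the 32 other lines. Fat2, a cadherin of these cells, had 4.83 CPM in BXD32, against at most 0.332 CPM in the 32 other lines. Of the cerebellar list, 4 of 13 genes were above all 32 lines in BXD32 and 4 in BXD101, and 1 and 2 were below. The summed level of the list in BXD32 was 418 CPM, inside the range of 361 to 497 CPM in the 32 other lines. The labels name the hypothalamus for every library, and the protocol they share also mentions RNA prepared from brainstem. Whether brainstem RNA had a part in the values of BXD32 was not tested.

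Other cell types and regions were counted in BXD32 as well. Of 15 oligodendrocyte and myelin genes, 6 were above all 32 other lines and 0 below, beside 11.6% and 8.88% of all genes, with a median difference of 0.42 on the log2 scale, against 0.0025 for all 14484 genes above 1 CPM in the mean of the 32 lines. Ugt8a, the enzyme that makes the myelin lipid galactosylceramide, had 155 CPM in BXD32, against 58.6 to 111 CPM in the 32 other lines. Of 20 endothelial and mural genes 7 were above all 32 lines and 1 was below, beside the same 11.6% and 8.88%. Of 14 microglial genes 6 were below, beside 8.88% of all genes, and their summed level was 261 CPM in BXD32, against 300 to 416 CPM in the 32 other lines. Csf1r, the growth factor receptor of microglia, had 56.2 CPM in BXD32, against 65.5 to 108 CPM in the 32 other lines. Of 16 striatal and septal genes 9 were below all 32 lines, with a median difference of -0.51. Ppp1r1b, the phosphoprotein DARPP-32 of striatal neurons, had 9.71 CPM in BXD32, against 13.4 to 182 CPM in the 32 other lines. Of 19 thalamic and habenular genes 5 were below all 32 lines and 2 were above. Their summed level of 851 CPM in BXD32 was inside the range of 664 to 1097 CPM in the 32 other lines. Tcf7l2, a factor of thalamic neurons and 1 of the lower genes, had 16.4 CPM in BXD32, against 23.8 to 69.5 CPM. Of 20 hypothalamic neuropeptides 2 were below all 32 lines, a share of 10% that is close to the 8.88% of all genes, with a median difference of -0.42 over the 19 above 1 CPM. Most genes of the myelin and microglial lists and most hypothalamic peptides thus lay inside the range of the 32 lines, while most of the striatal and septal list lay below it.

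Among the 10 genes most above the median of the 32 lines in BXD32, 5 were Hox genes and 3 were Slc6a5, Slc6a2 and Dbh. The remaining 2 were within the range of the 32 lines. Gh, growth hormone, had 19.2 CPM in BXD32, against 0 to 24.6 CPM, and Stab2, a scavenger receptor, had 83.1 CPM, against 0.807 to 84.9 CPM. Of the 10 genes most below the median, 8 were also within the range of the 32 lines, namely Rpl29, AA388235, Rps18, H2-Q2, Myo7a, Fggy, Acp1 and Ndufa12. The 2 outside it were Ankrd63 with 0.734 CPM, against 2.08 to 44.4 CPM, and H2-K1 with 3.37 CPM, against 4.04 to 37.5 CPM. H2-K1 and H2-Q2 are class I histocompatibility genes with near-identical copies, and Rpl29 and Rps18 have many processed copies, so their counts are uncertain.

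The other 3 Ttr-high lines differed from each other in their remaining genes. BXD65 and BXD101 were together above all 32 other lines for 21 genes (0.0989%). Of these, only Ttr, Kcne2, Slc4a5 and Folr1 were on the choroid plexus lists, and the others included Anapc15, Exoc8, Nxn and Ift43. Taken singly, 2.2% of all genes lay above the 32 lines in BXD65 and 5.52% in BXD101. A shared 0.0989% is no more than these separate shares would give, so nothing is read from the count. By the same rule of size and range as for BXD32, BXD65 had 4 genes higher and 2 lower, BXD63 had 3 higher and 36 lower, and BXD101 had 21 higher and 37 lower, Ttr being among the higher genes of each. BXD65 thus had few genes outside the range apart from Ttr, and over all genes 1.33% lay below all 32 other lines there. Its other higher genes were Sspn, Tmem159 and D830031N03Rik, all just above the highest of the 32 lines. Meningeal genes were high in BXD65 and BXD101 but inside the range of the 32 lines, except Mgp in BXD101 with 21.01 CPM, against at most 19.6 CPM. They had median differences of 0.80 and 0.96 over 15 genes and a summed level of 191 CPM in BXD65 and 239.7 CPM in BXD101, against 71.7 to 333 CPM in the 32 other lines. Slc6a13, a transporter of the meninges, had 16.02 CPM in BXD65 and 19.1 CPM in BXD101, against 3.76 to 27.2 CPM in the 32 other lines. Igf2, which both meninges and choroid plexus secrete, had 64.1 CPM in BXD32, 52.2 CPM in BXD63, 103 CPM in BXD65 and 119 CPM in BXD101, against 32.1 to 159 CPM in the 32 other lines. In BXD32 and BXD63 the summed meningeal level was 124 and 109 CPM.

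BXD101 had higher levels of many hypothalamic genes and lower levels of some genes of basal forebrain neurons, which were named after their values were seen. Of 24 hypothalamic transcription factors 13 were above all 32 other lines in BXD101 and 2 were below, beside 5.52% and 3.26% of all genes. Nkx2-1, the homeodomain factor that patterns the ventral hypothalamus, had 43.6 CPM in BXD101, against 20.9 to 35.1 CPM in the 32 other lines. Nr5a1, the factor of the ventromedial nucleus, had 17.5 CPM, against 6.11 to 15.2 CPM. Of 20 neuropeptides 6 were above all 32 lines and 0 below. Hcrt, orexin, had 123 CPM in BXD101, against 29.7 to 114 CPM in the 32 other lines, and Pomc had 69.2 CPM, against 13.2 to 62.3 CPM. The 2 transcription factors below the range were Lhx6 and Lhx8, which mark basal forebrain neurons. Lhx8 had 2.29 CPM in BXD101, against 6.82 to 17.7 CPM in the 32 other lines, and Lhx6 had 9.94 CPM, against 23.6 to 48.5 CPM. In BXD32 both were below the range too, with 6.69 CPM for Lhx8 and 18.5 CPM for Lhx6. Chat, the enzyme that makes acetylcholine, had 2.13 CPM in BXD101, against 8.90 to 21.1 CPM in the 32 other lines. It belongs to a list of 9 cholinergic and motor neuron genes added after the values were seen. In BXD101, 3 of the 9 were below all 32 lines and 2 above, with a median difference of 0.098. In BXD32 Chat stood at 11.96 CPM, inside the range.

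BXD63 had lower levels of some peptides. Oxt, oxytocin, had 17.03 CPM in BXD63, against 29.2 to 133 CPM in the 32 other lines. Hcrt had 23.4 CPM, against 29.7 to 114 CPM, and Avp, vasopressin, had 34.1 CPM, against 42.5 to 161 CPM. Of the 20 neuropeptides 4 were below all 32 lines in BXD63 and 0 above, beside 4.21% and 3.95% of all genes. Vgf, a secreted granin of peptide neurons, had 110.4 CPM in BXD63, against 169 to 304 CPM, and Pcsk1n, an inhibitor of prohormone convertase, had 45.8 CPM, against 59.8 to 440.2 CPM. For Hcrt, BXD63 lay below and BXD101 above all 32 other lines, although both carry Ttr above the threshold.

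**Figure D5:**
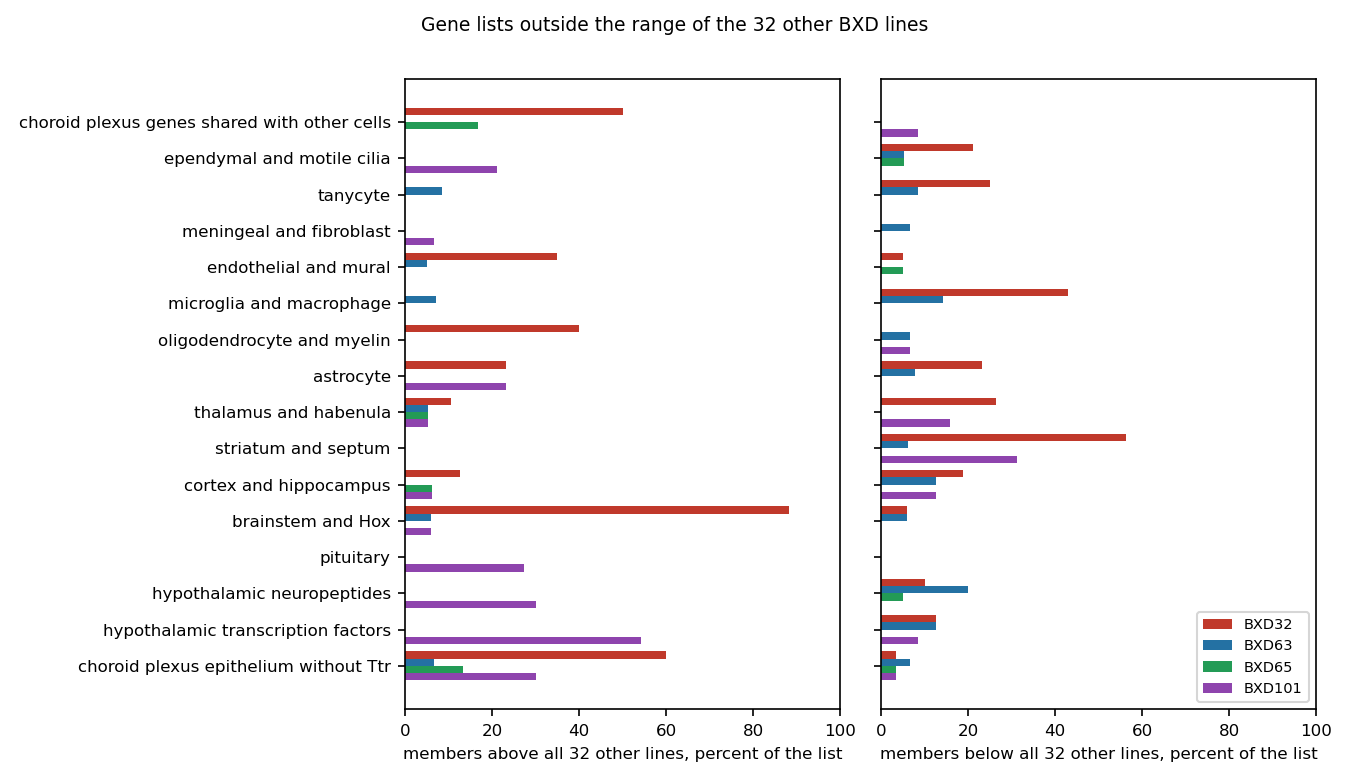
Share of the members of each gene list that lay above (left panel) or below (right panel) all 32 other BXD lines, in percent of the list, for BXD32, BXD63, BXD65 and BXD101 from top to bottom within each list. Above the range the tallest bars of BXD32 are those of brainstem and Hox genes and of choroid plexus genes, the tallest of BXD101 is that of hypothalamic transcription factors, and below the range striatal and septal genes in BXD32.

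The lists were also counted in the comparison of 4 lines by edgeR. Of 26 tested choroid plexus list genes without Ttr, 7 were called higher and 0 lower, with a median log2 fold change of 0.47, against 0.0083 over all 16145 genes tested. Without BXD32 the median was 0.22 and none was called. Of the brainstem list only 4 of 17 genes had enough reads over the lines to be tested, and 1 of them, Tph2, was called. Slc4a5, Slc6a5, Dbh, Slc6a2 and the Hox genes of groups 2 to 8 did not pass the filter on low counts, because they were high in too few libraries. No gene of the ependymal, tanycyte, meningeal, endothelial, microglial, myelin, astrocyte, thalamic, striatal, cortical, pituitary, neuropeptide or hypothalamic transcription factor lists was called in either direction. Genes that handle the cargo of transthyretin were not called either. Of 14 genes of thyroid hormone transport and response and 16 of retinoid transport and metabolism, 0 were called, with median log2 fold changes of -0.010 and 0.097. Over all genes tested 0.105% were called higher, so 0 calls in lists of these sizes say little about the lists.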

How the data were processed

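Stranded mRNA libraries (TruSeq) of mouse hypothalamus were sequenced as 100-base single-end reads with 40 M reads planned, per the labels' protocols. The submitters' processing notes name TopHat2 2.0.8, HTSeq 0.5.4p3, DESeq and mm9, with no parameters or annotation. Raw read counts were deposited by the authors for 23955 gene symbols, and every value here starts from them. The authors' normalized table, a deposited signal of 15251 genes scaled per library, served 1 alternative (limma 3.58.1 on log2(value + 1)).

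Members and gene lists were chosen with earlier results of these data known, and 6 lists of serotonin, noradrenaline, glycine, cholinergic, neurofilament and cerebellar genes were added after seeing the values. The other 22 lists came from textbook knowledge. CPM are counts per 1000000 of the library total, and log2 values carry a pseudocount of 0.1. Count tests used edgeR 4.0.16 in R 4.3.3 (TMM, filterByExpr, robust quasi-likelihood, Benjamini-Hochberg adjusted p under 0.05), checked on simulated data. DESeq2 1.42.0 was the other tool. The SE of a fold change is its size over the square root of F. Ttr was left out of all calls. Each line is 1 pooled library, so p-values measure the spread between lines.

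Genes named are the defining markers and up to 15 further choroid plexus genes, called genes outside those lists, the 10 genes most above and below in BXD32, members of other lists that passed, and 5 hypothalamic peptides. Further genes were named after their values were seen, as examples of lists or of the genes outside the range. Library totals ran from 12.2 to 40.4 M counts, and intervals cover counting error only, because PCR copies were not marked. RefSeq promoters (GRCm38.p6) were matched by symbol or synonym, and no mm9 coordinates are given.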

Additional observations from a re-analysis of the deposited data

Results flagged for a closer look

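In 6 of 21 genes examined, the BXD32 library lay far from the other 3 Ttr-high lines, by the gap to its nearest neighbour over the range of the 4 values on the log2 scale. BXD32 had 937 CPM of Enpp2, 4.58 CPM of Tfap2b, 513 CPM of Nefm, 72.5 CPM of Cgnl1, 52.1 CPM of Kat2b and 360.4 CPM of Nefh. The gap took 0.849 of the range for Enpp2 and 0.966 for Nefh. Chance flags about 1 in 20 such groups when genes are not chosen by their values. All 6 genes were among the 17 that edgeR called, and in each of those BXD32 was above every line outside the Ttr-high group. That rate therefore does not apply here, and no excess over chance is read from 6 of 21. The 6 genes come from the same library, and 5 of them were among the genes outside the choroid plexus lists that edgeR called in the comparison of 4 lines. The cause was not tested.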

How the results depend on the processing

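The 17 genes higher and 0 lower in the 4 Ttr-high lines by edgeR depended on the libraries kept. Leaving out 1 line gave 0 to 287 higher and 0 to 208 lower: 0 and 0 without BXD32, 36 and 0 without BXD63, 34 and 16 without BXD65, and 287 and 208 without BXD101. Higher genes numbered 52 with no filter on low counts (1 lower), 8 with Ttr above 5 CPM (6 lines), 92 for the slope on log2 Ttr (7 lower) and 1 by limma on the normalized table. DESeq2 called 0, with an adjusted p for 2831 genes and for none of the 17. Without its check on Cook distances, an alternative chosen after seeing the data, it called 32 higher and 3 lower. Without the filter, 51 of the 52 were above all 32 other lines in BXD32, and 12 were Hox genes. RLE scaling gave 14 higher, and a Ttr threshold of 20 CPM or library total as a covariate gave 17. In the 3 lines other than BXD32, 0 genes were called under every alternative run except without BXD63, so that leaving out 1 line gave 0 to 2 higher. Of the 9 called genes outside the choroid plexus lists, Tph2 (-0.26) and Vwa7 (-0.014) reversed without BXD32, and the other 7 fell short of the threshold. Leaving out 1 line gave log2 fold changes of -0.26 to 3.10 for Tph2 and -0.014 to 1.70 for Vwa7. Genes higher in BXD32 by size numbered 107, against 218 at 1 CPM and 34 at 2 log2 units, and lower ones 116, against 210 and 22. The difference in library total of 0.302 M ran from -1.84 M without BXD101 to 1.87 M without BXD65. The cause of these changes was not tested. No paired analysis was possible because the labels give 1 library per line and nothing matches a Ttr-high line to another line. Depth limits low genes: at 3 counts a level of 0.0743 to 0.245 CPM.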

Other observations

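Further genes above the range of the 32 other lines in BXD32 were picked after their values were seen. Pvalb, the calcium buffer parvalbumin, had 43.2 CPM in BXD32, against 9.13 to 22.3 CPM in the 32 other lines. Kcna1, a potassium channel beside the nodes of axons, had 336 CPM in BXD32, against 90.2 to 155 CPM, and Vamp1, a synaptic vesicle protein, had 522 CPM, against 222 to 324 CPM. Spp1, osteopontin, had 54.2 CPM in BXD32, against 5.08 to 15.5 CPM in the 32 other lines. In BXD63, BXD65 and BXD101 Pvalb had 17.1, 20.5 and 12.5 CPM, all inside the range of the 32 lines.

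Other lists were counted as well, beside the 0.105% of all genes called higher, so that 0 calls in a short list say little. Of 17 immediate early genes and 16 interferon response genes, 0 were called in the comparison of 4 lines by edgeR. Their median log2 fold changes were -0.079 and 0.22. Positive values were found for 5 of the 17 and 15 of the 16, beside 8410 of all 16145 genes. The 12 genes of folate, vitamin and iron transport had 0 calls and a median of 0.039. Pituitary transcripts were above all 32 other lines for 3 of 11 genes in BXD101 and for 0 in BXD32, beside 5.52% and 11.6% of all genes. Cga, the shared subunit of the glycoprotein hormones, had 9.44 CPM in BXD101, against 0 to 6.87 CPM in the 32 other lines. Lines outside the Ttr-high group could also stand apart by size: BXD90 had 83 and BXD56 66 genes at least 1 log2 unit above the median of the 32 lines and above every other line compared.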
